A study of Triticum aestivum with 24 samples.

Results

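The effect of drought on wheat leaves that were already growing in elevated CO2 was measured by comparing 3 libraries from plants given both treatments with 3 libraries from plants given elevated CO2 alone. These were 6 of the 24 messenger RNA libraries of the study, chosen by their treatment labels. All came from Triticum aestivum cultivar Alana, a winter bread wheat, sampled at growth stage 61, the beginning of flowering, from the main tiller (leaves 3 and 4). The CO2 group grew at 700 ppm CO2. The CO2+drought group grew at 700 ppm CO2 in soil held at 25 ± 5% water content. Neither group was heated; in the heated groups the temperature reached up to 31 °C. The other groups used here were control and drought at ambient CO2, temperature and temperature+drought, and CO2+temperature and CO2+temperature+drought, with 3 biological replicates each by title.

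Plants that run short of water close their stomata and make abscisic acid, a hormone that switches on genes for protective proteins and compatible solutes. Elevated CO2 also narrows stomata and so slows water loss, while it raises the supply of carbon for photosynthesis. What drought adds at high CO2 is therefore a separate question from what drought does in ordinary air. The deposited identifiers carry the chromosome and subgenome (A, B or D) of each gene and its order along the chromosome, but the table pairs none of the 105200 with a name, and 0 matched the reference gene table. Genes are therefore described by identifier, level and position, and leaf markers could not be looked up.

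The deposited unit was FPKM, in which the fragments of a gene are divided by its transcript length and by the mapped fragments of the library. The 3 CO2+drought columns had a lower overall scale than the 3 CO2 columns: the scale factor of a column, its typical ratio over genes to an average library, was 0.887 to 0.8924 against 1.055 to 1.057. Each library was divided by its factor, and all levels below are these rescaled FPKM. The columns summed to 616333 to 739056 FPKM as deposited, and 62553 to 64235 genes lay above 0 in each. Absolute depth was unknown. Over genes below 0.3 FPKM as deposited, the most frequent ratio to CO2 replicate 1, among ratios near 1, was 0.859 to 1.12. It was taken as the ratio of the values of 1 fragment, though only 12.7% to 13.5% of such genes had it.

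The replicates of the CO2+drought group did not vary freely. Among 1101 genes that averaged 5 FPKM or more and had at least a 2-fold range over its 3 libraries, replicate 3 lay between replicates 1 and 2 in 1093 genes (99.3%). On the linear FPKM scale its median position was 0.483 of the way from replicate 2 to replicate 1, with quartiles of 0.431 and 0.531. In the CO2 group, where only 73 genes had such a range, replicate 3 was the one between in 87.7%, at a median position of 0.437. In these genes replicate 3 of both groups thus lay near the arithmetic mean of the other two. Over all genes that averaged 5 FPKM or more, it lay between in 65.2% of 19551 under CO2+drought. Under CO2 it did so in 42.4% of 21498. Whether replicate 3 is a separate sample was not tested. P-values below count 3 libraries a group, and the counts of calls are also given without both replicates 3. In the other 6 groups a library between the other two was found in 60.3% (control) to 98% (CO2+temperature+drought) of such genes, so counts are also given without 1 such library in each of the 8 groups.

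**Figure D1:**
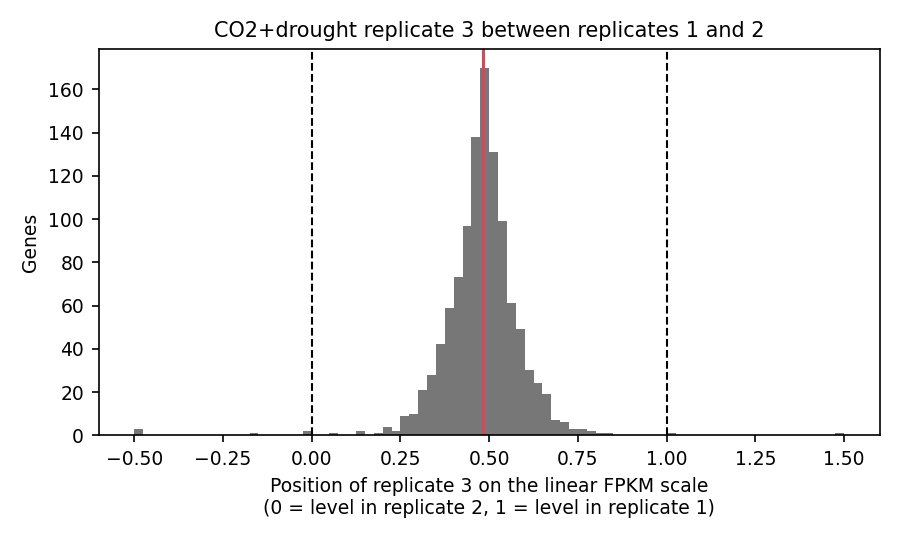
Position of CO2+drought replicate 3 between the other two libraries on the linear FPKM scale (x axis, 0 is the level in replicate 2 and 1 that in replicate 1) against the number of genes (y axis), for the 1101 genes with at least a 2-fold range. The red line is the median, 0.483; positions beyond the axis are drawn at its ends.

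Drought added to elevated CO2 changed 9561 of 45359 tested genes, 21.1% (limma on log2(FPKM + 1), Benjamini-Hochberg adjusted p under 0.05). Of these, 4813 (10.6%) were higher and 4748 (10.5%) lower. The rises were larger than the falls after rescaling. The median change was 0.63 over genes called higher and -0.47 over genes called lower on the log2 scale, beside -0.012 over all tested genes. A change of at least 1 on that scale was reached by 1131 rises (2.49% of tested genes) and 497 falls (1.1%), one of at least 2 by 219 and 63, and one of at least 3 by 43 and 10. In bulk leaf RNA, fewer cells of a type and less RNA per cell cannot be told apart.

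The 3 CO2+drought libraries lay wholly above the 3 CO2 libraries in 9407 genes (20.7%) and wholly below in 10674 (23.5%). Of the genes called higher and lower, 4647 and 4682 did not overlap between the groups. Without replicate 3 of both groups, 3992 genes were called (2157 higher, 1835 lower), with 778 rises and 434 falls of at least 1. Without the library that lay between in each of the 8 groups, 778 genes were called (432 higher, 346 lower). Of at least 1 there were 266 rises and 199 falls. That library was picked from these data as the middle one, so the fit keeps the outer libraries and has fewer of them. A loss of calls in it therefore follows in part from the choice. In the values as deposited, the median change over all genes was -0.19 and the calls were 2691 higher and 14588 lower, with 829 rises and 829 falls of at least 1. The balance of rises and falls, that of large changes included, thus rests on the rescaling. A drought effect and a difference in how the CO2+drought columns were made cannot be told apart here. Falls of any size numbered 3164 without CO2 replicate 1 and 3063 without CO2+drought replicate 3.

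**Figure D2:**
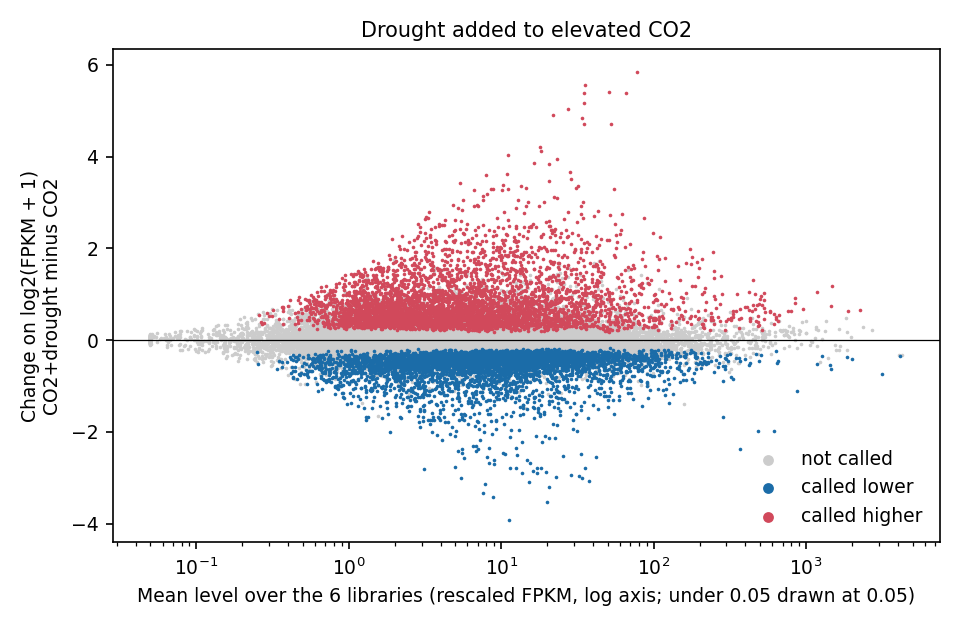
Change on the log2(FPKM + 1) scale, CO2+drought minus CO2 (y axis), against the mean rescaled level over the 6 libraries (x axis, log scale), 1 point for each of 45359 tested genes. Rises of over 3 (43 genes) outnumber falls of that size (10 genes) and lie at middle levels. Genes of low level cannot reach such a change on this scale, so the place of these rises follows in part from it.

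The largest rise was that of TraesCS5D02G042300 on chromosome 5D. It stood at 0.257, 0.144 and 1.58 FPKM in the 3 CO2 libraries and at 308, 14.9 and 143 FPKM in the 3 CO2+drought libraries. The groups did not overlap, and CO2+drought replicate 2 lay far below the other two libraries of its group. The log2 change was 5.85 (SE 0.937; limma, Benjamini-Hochberg adjusted p = 0.00021), 7.09 without CO2+drought replicate 2, 4.95 without CO2+drought replicate 1, and not called without the between library of each group (adjusted p = 0.063). In a fit to the 6 libraries alone, the limma adjusted p was 0.0089. This gene was listed at 0 in every control and drought library. It reached 152 ± 102 FPKM (SD, n = 3) under temperature+drought and 33.7 ± 28.8 FPKM (SD, n = 3) under all 3 treatments. With drought it was thus above 1 FPKM in every heated or CO2-treated library, and at 0 where neither heat nor CO2 was added.

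TraesCS4D02G267500 on chromosome 4D stood at 0.411, 0.153 and 0.244 FPKM in the CO2 libraries and at 117, 23.7 and 71.9 FPKM in the CO2+drought libraries. Every CO2+drought library was above every CO2 library, with replicate 2 again the lowest. The log2 change was 5.56 (SE 0.599; limma, Benjamini-Hochberg adjusted p = 2.9e-06), and it was still called without the between library of each group (adjusted p = 0.018). It was 6.19 without CO2+drought replicate 2. In ambient air the gene stood at 0.172 ± 0.092 FPKM (SD, n = 3) in control and 0.796 ± 0.207 FPKM (SD, n = 3) under drought, a log2 change of 0.61 that did not pass the test (limma adjusted p = 0.72). Under temperature+drought it reached 32.6 ± 26.1 FPKM (SD, n = 3) and under all 3 treatments 7.47 ± 5.71 FPKM (SD, n = 3), below its CO2+drought mean of 70.8 ± 46.5 FPKM.

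The largest falls were both on chromosomes of group 1. TraesCS1B02G435400 on chromosome 1B stood at 21, 23.3 and 21.6 FPKM in the CO2 libraries and at 0.332, 1.34 and 0.124 FPKM in the CO2+drought libraries. The CO2 libraries lay close together and far above the others. The log2 change was -3.92 (SE 0.656; limma, Benjamini-Hochberg adjusted p = 0.00033). The call was lost without the between library of each group (adjusted p = 0.096). At ambient CO2 the gene stood at 24.3 ± 3.83 FPKM (SD, n = 3) in control and 15.8 ± 3.93 FPKM (SD, n = 3) under drought, and this difference was not called (log2 change -0.60, limma adjusted p = 0.76). Under all 3 treatments its libraries spread from 0.417 to 22.9 FPKM.

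TraesCS1A02G419200 on chromosome 1A stood at 38.4, 38.8 and 35 FPKM in the CO2 libraries and at 2.94, 2 and 2.11 FPKM in the CO2+drought libraries. Both groups were tight and did not overlap. The log2 change was -3.53 (SE 0.32; limma, Benjamini-Hochberg adjusted p = 3.7e-07), with an adjusted p of 0.0075 without the between library of each group. Its level of 1.26 ± 0.783 FPKM (SD, n = 3) under temperature+drought was also low, against 13.5 ± 7.61 FPKM (SD, n = 3) under temperature. Under all 3 treatments it stood at 23.8 ± 7.31 FPKM (SD, n = 3), against 27.2 ± 3.58 FPKM under CO2+temperature, a difference that was not called (limma adjusted p = 0.69).

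**Figure D3:**
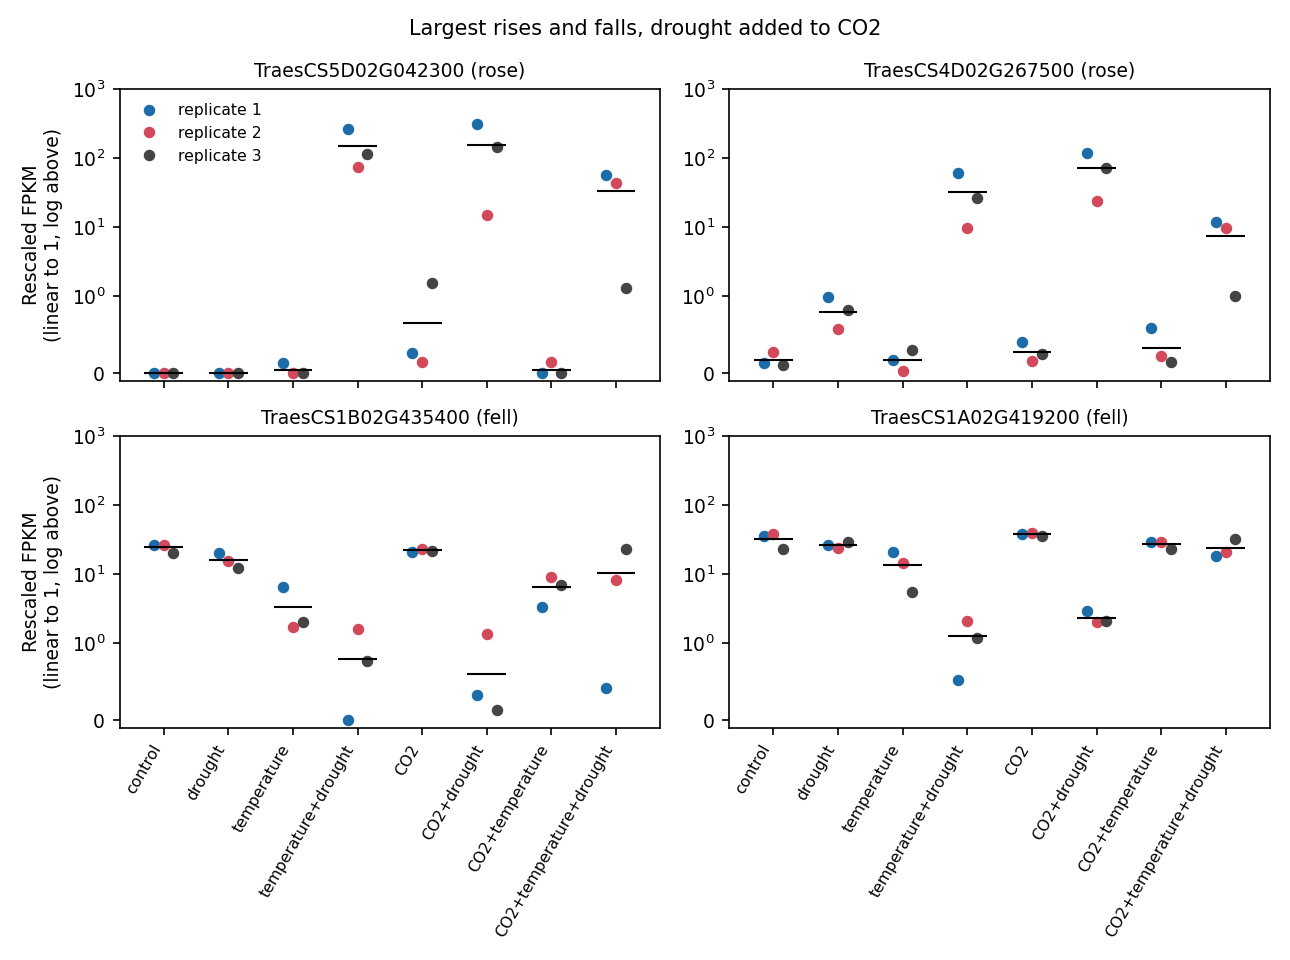
Rescaled FPKM (y axis, linear to 1 and log above) of the 2 genes with the largest rises and the 2 with the largest falls in each of the 24 libraries, by group (x axis); dots are libraries and bars are group means (n = 3). The 2 rising genes are high under CO2+drought and temperature+drought and lower under all 3 treatments; both falling genes are near their control level under CO2 alone.

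The balance of rises and falls moved with the level of the transcript. Of genes with a mean of 1 to 2 FPKM over the 6 libraries, 11.2% were called higher and 5.67% lower. Of genes at 20 to 50 FPKM, 11.8% were higher and 17.3% lower. The median log2 ratio of group means ran from 0.057 at 1 to 2 FPKM to -0.077 at 50 to 100 FPKM, a difference between levels that 1 factor per library cannot remove. Above 100 FPKM it was -0.012, with 17.5% of genes called higher and 18% lower. With quantile normalization, chosen after the data were seen, 4322 genes were higher and 5057 lower. Of the 100 genes with the highest mean (539 to 4268 FPKM), 19 were called higher and 13 lower, and 2 rose and 2 fell by at least 1. These 100 held 15.6% to 16.8% of all FPKM in the CO2 libraries and 16.4% to 16.6% in the CO2+drought libraries, which overlap.

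Some genes that follow each other in the identifier order of tested genes changed in 1 direction. Genes that were not tested were skipped, so members of a run are not always next to each other by identifier. There were 195 runs of 3 or more consecutive tested genes called alike, 96 higher and 99 lower, which held 657 of the 9561 called genes (6.87%). With 10.6% of tested genes called higher and 10.5% lower, some such runs arise without any clustering. How many was not worked out, so the count is not read as clustering. The longest run called higher had 7 genes and the longest called lower had 6. Counting only changes of at least 1, there were 13 runs of 4 or more genes, 7 that rose and 6 that fell. These runs were found by the calls they describe and carry no test. The sources used here do not say how fragments were divided among near-identical neighbours and subgenome copies, so members of a run are not independent measurements.

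A run of 6 genes on 2A, 4 on 2B and 5 on 2D rose at 11.3%, 12.6% and 10.9% of the way along their chromosomes by identifier order. The 2A genes summed to 89.9, 197 and 151 FPKM in the CO2 libraries and to 480, 706 and 589 FPKM in the CO2+drought libraries, and the 6 single changes ran from 1.70 to 2.87 on the log2 scale. The CO2+drought sums all lay above the CO2 sums, and in both groups replicate 2 was the highest and replicate 1 the lowest. The 2D genes summed to 170, 343 and 284 FPKM under CO2 and to 733, 1040 and 871 FPKM under CO2+drought, in the same order of libraries. The direction in the other backgrounds was not the same throughout. The 2A sum was 236 ± 44 FPKM (SD, n = 3) in control and 353 ± 55.8 FPKM under drought, with 0 of 6 genes called where 1.8% of all tested genes were. It was 641 ± 289 FPKM under temperature and 1310 ± 201 FPKM under temperature+drought, with 4 of 6 genes called higher on 2A, 2 of 4 on 2B and 3 of 5 on 2D, where 20.3% of tested genes were called higher. With CO2 and temperature both raised, the order was the opposite. The 2A sum was 556 ± 211 FPKM (SD, n = 3) under CO2+temperature and 91.7 ± 56.2 FPKM (SD, n = 3) under all 3 treatments. All 6 genes on 2A, 4 on 2B and 5 on 2D were called lower in that comparison, in which 12% of tested genes were called lower.

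A run of 6 genes on 3B rose from almost nothing. It summed to 6.36, 5.59 and 7.1 FPKM in the CO2 libraries and to 60.1, 85.2 and 68.5 FPKM in the CO2+drought libraries. The sum was 3.65 ± 1.33 FPKM (SD, n = 3) in control and 3.19 ± 0.874 FPKM (SD, n = 3) under drought, and 0 of the 6 genes were called there, where 1.8% of tested genes were. It was 15.1 ± 5.57 FPKM (SD, n = 3) under temperature and 64.5 ± 15.3 FPKM (SD, n = 3) under temperature+drought. All 6 genes were called higher in that pair, where 20.3% of tested genes were. The sum was 47.2 ± 4.78 FPKM under CO2+temperature and 44 ± 24.6 FPKM under all 3 treatments. In that comparison 0 of the 6 genes were called, where 22.3% of tested genes were. A run of 4 genes on 7B summed to 17.8 ± 4.07 FPKM (SD, n = 3) under CO2 and 60.4 ± 32.8 FPKM (SD, n = 3) under CO2+drought, and to 114 ± 61.3 FPKM under temperature+drought against 5.62 ± 2.07 FPKM under temperature. All 4 of its genes were called higher in that heated pair and 3 of 4 when drought was added to CO2+temperature, where 20.3% and 10.3% of tested genes were called higher. A run of 4 genes near the start of 7A was highest in this comparison's own groups: it summed to 60.6 ± 6.32 FPKM (SD, n = 3) under CO2 and 206 ± 94.4 FPKM (SD, n = 3) under CO2+drought, and to at most 26.6 FPKM (mean, n = 3) in each of the other 6 groups.

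Among the falls, runs on 1A (4 genes) and 1D (5 genes) lay at 65.1% and 63.6% of the identifier order, runs on 1B (5 genes) and 1D (4 genes) at 93.3% and 93.9%, and runs on 3B and 3D (4 genes each) at 76.5% and 77.9%. The 1B genes summed to 216, 224 and 199 FPKM in the CO2 libraries and to 25.9, 36.3 and 31.5 FPKM in the CO2+drought libraries. The 1D genes at 93.9% summed to 133, 135 and 144 FPKM and to 14.3 to 16.2 FPKM. In ambient air the 1B sum was 239 ± 45.2 FPKM (SD, n = 3) in control and 207 ± 15.5 FPKM (SD, n = 3) under drought, and 0 of the 5 genes were called there, where 1.8% of tested genes were. It was 154 ± 8.31 FPKM under temperature and 11.8 ± 3.93 FPKM under temperature+drought, with 5 of 5 genes called lower (16.4% of tested genes). It was 219 ± 6.84 FPKM under CO2+temperature and 137 ± 57 FPKM under all 3 treatments, with 4 of 5 called lower (12% of tested genes). The 3B sum was 39 ± 5.35 FPKM (SD, n = 3) under temperature and 71.5 ± 23.3 FPKM (SD, n = 3) with drought added. Whether the runs at like places on A, B and D chromosomes are copies of each other was not tested.

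**Figure D4:**
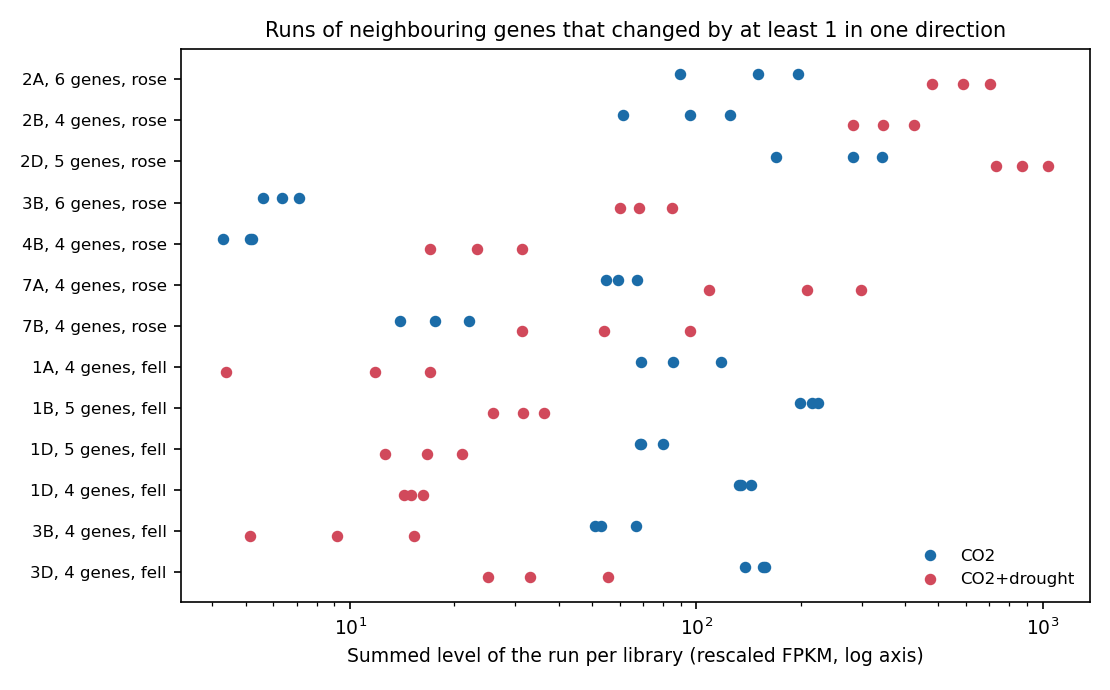
Summed rescaled FPKM (x axis, log scale) of the 13 runs of 4 to 6 consecutive tested genes that changed by at least 1 in 1 direction (y axis, by chromosome), with 1 dot per library of the CO2 and CO2+drought groups. The libraries of the groups do not overlap in any of the 13 runs, which were chosen for that change.

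The calls were found on every chromosome. Rises made up 9.61% (2A) to 11.9% (5A) of the tested genes on the 21 chromosomes, and falls 8.51% (6A) to 11.9% (3D). On the A, B and D subgenomes 10.6%, 10.4% and 10.7% of tested genes rose and 10.2%, 10.7% and 10.5% fell. Falls of at least 1 made up 1.76% of the tested genes when each chromosome was cut into 10 parts by identifier order and the last was taken, against 0.664% in part 4. Hardly any gene was present in 1 group and absent from the other: 1 gene was listed at 0 in the 3 CO2 libraries and at 1 FPKM or more in the 3 CO2+drought libraries, and 2 genes showed the reverse. The first count was 19 without CO2+drought replicate 2, 4 without CO2 replicate 1 and 3 without CO2 replicate 2.

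The levels of the genes that changed by at least 1 were then followed into the libraries of the other groups. Those libraries did not enter the changes that chose the lists. They did enter the estimate of spread, the filter and the scale factors, so they are not a wholly independent set. For the 1131 rises, the median level on the log2(FPKM + 1) scale was 1.9 ± 0.012 under CO2 and 3.6 ± 0.32 under CO2+drought (SD of the library medians, n = 3 each). In ambient air it was 1.82 ± 0.062 in control and 2.29 ± 0.27 under drought. It was 1.54 ± 0.05 under temperature, 3.17 ± 0.47 under temperature+drought, 1.76 ± 0.066 under CO2+temperature and 2.34 ± 0.37 under all 3 treatments. All 4 groups with drought thus had higher medians than their own background, and CO2+drought and temperature+drought stood above the rest. Within CO2+drought, replicate 2 was the lowest library in 724 of the 1131 genes and replicate 1 the highest in 706, with median changes of 1.21 and 1.64.

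For the 497 falls, the median level was 3.64 under CO2 in all 3 libraries and 2.09 ± 0.021 under CO2+drought (SD, n = 3). Unlike the rises, the falls had nearly the same size in the 3 CO2+drought libraries, with median changes of -1.34, -1.30 and -1.29. In ambient air the level was 3.78 ± 0.036 in control and 3.75 ± 0.045 under drought. It was 3.19 ± 0.084 under temperature, 2.53 ± 0.16 under temperature+drought, 3.39 ± 0.068 under CO2+temperature and 3.06 ± 0.22 under all 3 treatments. The median over all tested genes stayed between 2.40 and 2.44 in the 8 groups.

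**Figure D5:**
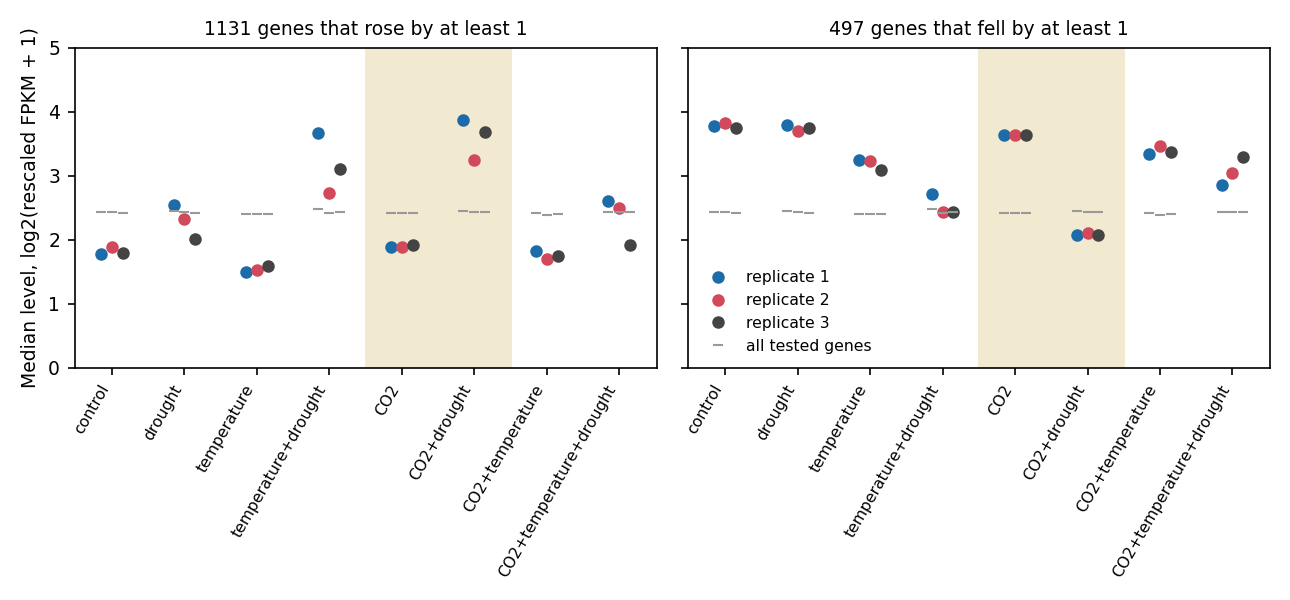
Median level on the log2(rescaled FPKM + 1) scale (y axis) of the 1131 genes that rose and the 497 that fell by at least 1 with drought added to CO2, in each of the 24 libraries by group (x axis); grey marks are the median of all tested genes. The changes between the shaded groups chose the lists, in a fit whose estimate of spread came from all 24 libraries. The rises are also high under temperature+drought, and the falls stand at 3.78 in control and 3.75 under drought.

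The drought effect in each other background was next set beside that under CO2, in comparisons that share no library with it. Drought alone, at ambient CO2, changed 818 genes (1.8% of those tested). The 1131 rises had a median change there of 0.25 ± 0.1 (SD over the 3 drought libraries), against 0.0144 over all genes, and 58 were called higher and 5 lower. The 497 falls had a median change of -0.0289 ± 0.013, with 9 called lower and 4 higher; of all tested genes, 1% were called higher and 0.8% lower. Of the 263 genes called in both comparisons (2.75% of the 9561 and 32.2% of the 818), 165 had 1 direction and 98 opposite directions. Without the between library of each group, the median change of the rises in drought alone was 0.0563.

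Drought added to temperature changed 16632 genes (36.7%). The 1131 rises had a median change of 1.18 ± 0.4 there, and 805 were called higher and 23 lower, where 20.3% of all tested genes were called higher. The 497 falls had a median change of -0.598 ± 0.051, with 254 called lower and 73 higher, where 16.4% were called lower. With the list chosen without CO2+drought replicate 1, that median was -0.389. Of the 5123 genes called in both (53.6% of the 9561 and 30.8% of the 16632), 4035 (78.8%) had the same direction. The temperature+drought columns carried the same low overall scale as the CO2+drought columns, and all 6 of these libraries lay above the other 18 in 178 of the 1131 rises (15.7%) and below in 80 of the 497 falls (16.1%). Over all tested genes these shares were 1.55% and 0.802%, but the lists were chosen on 3 of the 6 libraries, so nothing is read from the difference. A response shared by the 2 groups and a difference in how their columns were made cannot be told apart here.

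Drought added to CO2 and temperature together, in columns of the usual scale, changed 10133 genes (22.3%). The rises had a median change of 0.40 ± 0.22, and 322 were called higher and 102 lower, where 10.3% of all tested genes were called higher. The falls had a median change of -0.337 ± 0.075, with 176 called lower and 55 higher, where 12% were called lower. Of the 3198 genes called in both (33.4% of the 9561 and 31.6% of the 10133), 1774 (55.5%) had the same direction and 1424 the opposite. The fit uses 1 estimate of spread per gene for all comparisons, so a gene of small spread is called more readily in each of them. The groups differed in spread. The root mean square SD over genes was 0.139 under CO2, 0.162 in control, 0.234 under CO2+drought and 0.302 under all 3 treatments. A shared estimate can therefore be too large for 1 comparison and too small for another.

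Whether the drought effect differed between elevated and ambient CO2 was tested as an interaction, the change with drought under CO2 minus that in ambient air. It was called in 4948 genes (10.9%, limma, Benjamini-Hochberg adjusted p under 0.05), 2129 positive (4.69%) and 2819 negative (6.21%). Among the groups it uses, only CO2+drought had columns of the low overall scale. A differing drought effect and a difference in how those columns were made therefore cannot be told apart. TraesCS5D02G401300 on chromosome 5D stood at 71.4, 88.3 and 116 FPKM in control and at 176, 293 and 353 FPKM under drought. Under CO2 it stood at 652, 596 and 611 FPKM, and under CO2+drought at 139, 101 and 121 FPKM. The gene was thus higher with drought in all 3 ambient libraries and lower with drought in all 3 CO2 libraries, with an interaction of -3.90 (SE 0.742; limma adjusted p = 0.0021). Its rise in ambient air was not called on its own (log2 change 1.54, limma adjusted p = 0.16), whereas its fall under CO2 was (log2 change -2.37, limma adjusted p = 0.0033). The interaction was not called without the between library of each group (limma adjusted p = 0.2).

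TraesCS1A02G290200, a member of the 1A run that fell, had an interaction of -3.69 (SE 0.24; limma adjusted p = 2.3e-09). It stood at 22.7, 13.1 and 15.4 FPKM under CO2 and at 0.812, 0.383 and 0.784 FPKM under CO2+drought, but at 15.6 ± 2.56 FPKM (SD, n = 3) in control and 18.8 ± 1.07 FPKM (SD, n = 3) under drought. Low levels were not particular to drought under CO2. The gene stood at 1.41 ± 0.42 FPKM under temperature and 1.34 ± 0.255 FPKM under CO2+temperature (SD, n = 3 each). With drought added to these, its means were 1.18 and 1.25 FPKM. The 2 largest positive interactions were of unlike kinds. TraesCS5D02G042300, described above, was listed at 0 in the control and drought libraries. Its interaction of 5.85 (SE 1.33, limma adjusted p = 0.0077) is its change under CO2. That interaction was not called without the between libraries (limma adjusted p = 0.27). TraesCS3B02G010200 had an interaction of 6.82 (SE 0.0862; limma adjusted p = 2e-21), yet it stood at no more than 0.0425 FPKM in the 6 CO2 and CO2+drought libraries and its change there was not called (limma adjusted p = 0.72). That interaction comes from the control libraries, where the gene stood at 118, 113 and 116 FPKM. Its mean was 0.0116 FPKM under drought, 0.018 FPKM under temperature and 0.0365 FPKM under CO2+temperature, its highest outside control. The gene was thus near 0 in every treated group, with or without drought. The interaction was called in 2179 genes without replicate 3 of the CO2 and CO2+drought groups, in 247 without the between library of each group, in 3241 without control replicate 1 (1783 negative) and in 3295 without CO2+drought replicate 3 (1856 negative).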

How the data were processed

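RNA-seq of 24 wheat leaf libraries (8 groups of 3) was deposited as FPKM for 105200 genes, made by the authors before deposit. Per the submitters' processing notes, the tools were Trim Galore 0.4.1, HISAT2, Cuffdiff and DESeq2, whose roles are not stated. Genome build, annotation and scaling: not given in the sources used here. Libraries were divided by median-ratio factors (genes above 0 in every library). The 45359 genes that reached 1 FPKM in 3 or more libraries were tested as log2(FPKM + 1), which understates changes of low genes. One fit with limma 3.58.1 (R 4.3.3, mean-variance trend) covered the 24 libraries, with a coefficient for each group. Tests were two-sided, with Benjamini-Hochberg adjustment over all tested genes and calls at an adjusted p under 0.05. The scripts were tested on simulated data.

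Named genes were the 2 largest rises and 2 largest falls among called genes with groups that did not overlap and a higher group averaging 5 FPKM or more, and likewise for the interaction without the overlap rule. The 13 gene lists prepared by symbol matched 0 identifiers and were not used. Absolute depth is unknown, so no counting interval is given. The comparison, the rule and the lists were chosen with earlier results of these data known. Alternatives were the scaling, the pseudocount, the filter, library quality weights, subsets of libraries, the trend, the replicate block and leaving out each library.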

Additional observations from a re-analysis of the deposited data

Results flagged for a closer look

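The interaction test called 4948 genes (limma, Benjamini-Hochberg adjusted p under 0.05), and 4 of these are named because the difference between backgrounds was itself tested. Among the groups in that test only CO2+drought had columns of the low scale. A differing drought effect and a difference in how the columns were made cannot be told apart. TraesCS5D02G401300 had an interaction of -3.9: levels were higher in all 3 drought libraries than in control, and lower in all 3 CO2+drought libraries than in CO2. TraesCS1A02G290200 had an interaction of -3.69, with a fall under CO2 that was called and a change in ambient air that was not. Its level was also low in every heated group, with or without drought. TraesCS5D02G042300 had an interaction of 5.85 and was listed at 0 in all 6 control and drought libraries. It also rose when drought was added to temperature (log2 change 6.995, limma adjusted p = 8.4e-06). TraesCS3B02G010200 had an interaction of 6.82 that rests on its level in the control libraries alone. It was near 0 in every treated group, with or without drought. Groups of 3 libraries are too small for a test of single libraries that stand apart.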

How the results depend on the processing

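The fits with quantile normalization, without both replicates 3 and without the between libraries were chosen after seeing the data. Instead of the 9561 calls with drought added to CO2 there were 9240 to 11209 under the other 2 scalings, a pseudocount of 0.1, no filter, no trend, the 6 libraries alone, the replicate block (9631) and quantile normalization. As deposited the count was 17279 (2691 higher, 14588 lower, with 829 rises and 829 falls of at least 1), and with library quality weights 27856 (13392 higher, 14464 lower). With a pseudocount of 0.1, 1758 rises and 951 falls reached 1. Without replicate 3 of both groups the count was 3992 (2157 higher, 1835 lower), and without the between library of each group, which leaves 2 libraries a group, 778 (432 and 346, with 266 and 199 of at least 1). Leaving out 1 library gave 6384 to 7861 in all, 3321 to 4292 higher, 3063 to 3944 lower, 961 to 1315 rises and 479 to 514 falls of at least 1.

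For the interaction, 4948 calls became 10515 as deposited (1362 positive, 9153 negative), 18438 with quality weights (8388 and 10050), 8263 in the 12 libraries at ambient temperature (3521 and 4742), 2179 without both replicates 3 (984 and 1195) and 247 without the between libraries (175 and 72). Leaving out 1 library gave 3241 to 4704 (1439 to 2297 positive, 1783 to 2500 negative), and the replicate block 4996. Library weights gave much larger counts, and the cause was not tested. The fits without between libraries gave much smaller ones, in part because the libraries left out were picked as the middle ones.

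In drought alone, the median change of the rises was 0.0563 without the between libraries and 0.192 to 0.289 without 1 library. That of the falls was -0.0102 as deposited, -0.0839 with 75th percentile scaling, -0.0952 with equal column sums, -0.0792 with quantile normalization, -0.0154 without the between libraries and -0.0601 to -0.0048 without 1 library. In temperature, the falls had -0.711 with 75th percentile scaling, -0.71 with equal sums, -0.543 with quality weights, -0.672 with quantile normalization, -0.705 without the between libraries and -0.707 to -0.389 without 1 library. In CO2+temperature, the rises had 0.115 without the between libraries, and the falls had -0.22 as deposited, -0.223 with equal sums, -0.24 with a pseudocount of 0.1 and -0.443 without the between libraries. No median changed sign under the settings run. The longest run of called genes was 11 higher and 10 lower with quality weights (7 and 6 in the report; 9 and 7 with a pseudocount of 0.1 or the 6 libraries alone; 6 to 7 and 5 without 1 library), 10 lower as deposited and 3 higher without the between libraries. Genes listed at 0 in CO2 numbered 1 to 19 without 1 library.

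Of the 8 named results, 4 lost their call, each only without the between libraries: TraesCS5D02G042300 and TraesCS1B02G435400 with drought added to CO2, and TraesCS5D02G042300 (adjusted p = 0.27) and TraesCS5D02G401300 (adjusted p = 0.2) for the interaction. The replicate numbers did not pair the CO2 and CO2+drought libraries (correlations of deviations of 0.038, 0.03 and -0.015 across genes), and only replicates 1 and 2 matched best with their own number. Depth was unknown, so changes of genes below about 1 FPKM are the least certain.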

Other observations

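A library that lay between the other two was also present outside the CO2 and CO2+drought groups, nearest to their arithmetic mean in CO2+temperature. Over genes with at least a 2-fold range, CO2+temperature replicate 3 lay between in 89.4% of 160 genes at a median position of 0.481, temperature+drought replicate 3 in 97.1% of 2082 genes at 0.313 of the way from replicate 2 to replicate 1, and drought replicate 2 in 96.3% of 491 genes at 0.399 of the way from replicate 3 to replicate 1. Temperature replicate 2 lay between in 95.7% of 819 genes at 0.667, and CO2+temperature+drought replicate 2 in 98% of 2244 genes at 0.726, on the same reading from replicate 3 to replicate 1. In control the most frequent was replicate 2, in 60.3% of 194 genes. Whether the 3 libraries of a group are separate samples was not tested, and these values do not measure it.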
